A study of Mus musculus with 6 samples.

Results

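The insulin receptor to FoxO1 genes described here are Insr, Irs1, Irs2, Grb14, Pik3r1, Akt1, Akt2, Foxo1 and Foxo3, 9 of the 17624 genes measured. They were taken by symbol from the table of the whole series, each symbol occurring once there. They were chosen by earlier results on the same RPKM values of these 6 livers, in the same contrast. Their differences are therefore given as a description, without p-values for single genes, and counts of them that pass a threshold are descriptions too. Liver RNA was sequenced from 3 conF1-F and 3 iAsF1-F mice, all C57BL/6 females of the F1 generation. Before mating, iAsF1-F fathers were kept on drinking water containing inorganic arsenic (iAs, as sodium arsenite), and conF1-F fathers were not. The mothers of both groups were unexposed, and no F1 mouse was itself given iAs. The sample labels give livers taken at a feeding status, and the heat map legend of the paper gives the refeeding condition. The age of the mice at harvest and whether the 3 livers of a group came from separate litters were not given in the sources used here, so that any spread between livers may include shared litters.

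In hepatocytes, insulin binds its receptor (INSR), which phosphorylates the adaptor proteins IRS1 and IRS2. These recruit PI 3-kinase through its regulatory subunit p85α, the product of Pik3r1, and the lipid made by the kinase brings AKT1 and AKT2 to the membrane to be activated. AKT then phosphorylates FoxO1 and FoxO3, transcription factors that leave the nucleus in this form and no longer drive genes of glucose production, whereas GRB14 binds the active receptor and inhibits it. Most of this control acts on proteins and their phosphorylation, which mRNA levels do not measure.

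Of the 9 genes, Irs2 was higher in every iAsF1-F liver than in any conF1-F liver, at 1.89-fold the mean level. Pik3r1 was lower in every iAsF1-F liver, at a mean 4.49-fold below that of conF1-F. Akt1 was also lower in every iAsF1-F liver, but most of its difference came from 1 liver. Insr, Irs1, Grb14, Akt2, Foxo1 and Foxo3 had overlapping groups. Over all 6448 genes compared, 744 (11.5%) had groups that did not overlap. Of the 9 genes, chosen on these same values, 8 were compared, and 0 passed an adjusted p under 0.05 (limma).

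The promoters of Irs1 and Irs2 are shown first because Irs2 is itself known to be repressed by insulin through FoxO1 and an E-box factor, and because the matched letters lie close together and in the same order in both substrate genes. Each line gives the 130 bases before the RefSeq transcription start on the coding (sense) strand of GRCm38.p6, 5′ to 3′. Capitals mark the E-box CACGTG and the insulin response sequence, which reads TGTTTTG on this strand and CAAAACA on the other. The Irs2 stretch is chr8:11008930-11009059 and the Irs1 stretch is chr1:82291440-82291569, both on the minus strand.
Irs2: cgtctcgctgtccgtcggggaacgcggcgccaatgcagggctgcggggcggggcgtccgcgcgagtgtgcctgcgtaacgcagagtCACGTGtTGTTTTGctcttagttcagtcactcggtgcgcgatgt
Irs1: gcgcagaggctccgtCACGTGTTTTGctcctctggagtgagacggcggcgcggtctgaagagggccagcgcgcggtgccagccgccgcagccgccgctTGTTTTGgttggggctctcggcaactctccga
In Irs2 the E-box begins 44 bases and the insulin response sequence 37 bases before the start, separated by a single base. In Irs1 they begin 115 and 111 bases before the start and overlap by the letters TG, and a further insulin response sequence begins 32 bases before the start. The RefSeq start of Irs2 lies 471 bases upstream of the start in the GENCODE annotation, and that of Irs1 lies 23 bases upstream.

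Promoter windows running from 250 bases before to 50 bases after the start were found for 8 of the 9 genes, 13 windows in all, and Insr was not matched. The insulin response sequence was present on either strand in 6.28% of all 32851 RefSeq promoter windows, and the E-box in 7.15%. Both were present in 134 windows (0.408%), and in 9 windows (0.0274%), among them those of Irs1 and Irs2, their first bases lay at most 10 bases apart. The FoxO binding element, GTAAACA or TGTTTAC on the other strand, was present in 3.65% of all windows and in 1 window of these genes, the upstream start of Akt1, where it begins 161 bases before the start. The remaining windows, those of Grb14, Pik3r1, Akt2, Foxo1 and Foxo3 and the downstream start of Akt1, held no match to any of the 3 motifs. The motifs were chosen after the promoters had been seen. The limit of 10 bases takes in the spacings of Irs1 and Irs2, and the share of 0.0274% depends on it. A match is a run of letters, not a measured binding site.

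**Figure D1:**
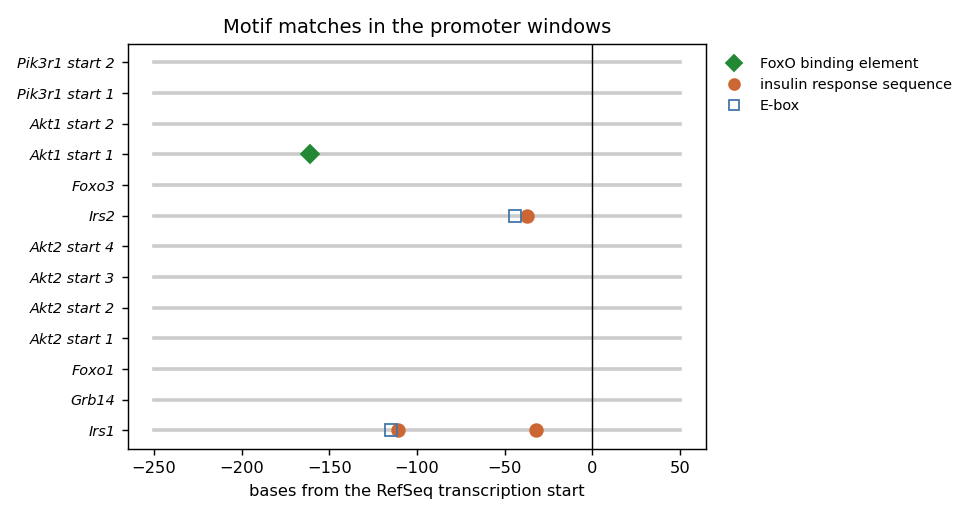
Matches to 3 motifs in 13 RefSeq promoter windows of 8 genes, by distance in bases from the transcription start (vertical line); grey bars are the windows, from 250 bases before to 50 after the start. Irs1 and Irs2 hold an E-box beside an insulin response sequence, and the upstream start of Akt1 holds the only FoxO binding element.

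Levels are in RPKM, reads scaled to the length of the transcript and the size of the library, and the number of reads behind them was not given. From the smallest steps between values, the libraries were estimated to hold 67.1% to 100% of the reads of the deepest, iAsF1-F replicate 1 being the lowest. Judged from decimals, 5501 genes (31.2%) hold averages of 2 or more entries, and 6 of the 9 genes here are of this kind: Insr, Pik3r1 and Akt1 with 4 entries, Akt2 and Foxo3 with 3 and Grb14 with 5. Irs1, Irs2 and Foxo1 have 1 entry. What the entries are was not given in the sources used here. Differences were fitted by limma on the log2(RPKM + 1) scale, which compresses changes at low levels, and a log2 fold change above 0 means a higher level in iAsF1-F. The fit took in 6448 genes whose average reached 1 RPKM. Hepatocyte markers were above 0 in every liver for 9 of 9 genes. Their summed level was 35515 to 42000 RPKM in conF1-F and 37698 to 42988 RPKM in iAsF1-F.

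Foxo3 had a mean below 1 RPKM, so that 8 of the 9 genes entered the comparison. None of them was a DEG (limma, Benjamini-Hochberg adjusted p under 0.05), against 16 DEGs among all 6448 genes (0.248%). At an unadjusted p under 0.05, 2 of the 8 genes passed, against 330 of all genes (5.12%). The groups did not overlap for 3 of the 8 genes, against 744 of all genes (11.5%). The group of iAsF1-F lay above for Irs2, as for 5.83% of all genes, and below for Pik3r1 and Akt1, as for 5.71%. A log2 fold change above 0 was found for 6 of the 8 genes, against 49.7% of all genes, and its median was 0.39 against −0.00. Of the 6, Insr reached the filter only through iAsF1-F, with a mean of 1.62 RPKM against 0.429 RPKM in conF1-F. Akt2 and Grb14 stood at 0.02 and 0.01, and the values of Irs1 and Foxo1 each rest on 1 conF1-F liver listed at 0. These counts describe genes that were chosen with the same contrast in view, and nothing is read from them.

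**Figure D2:**
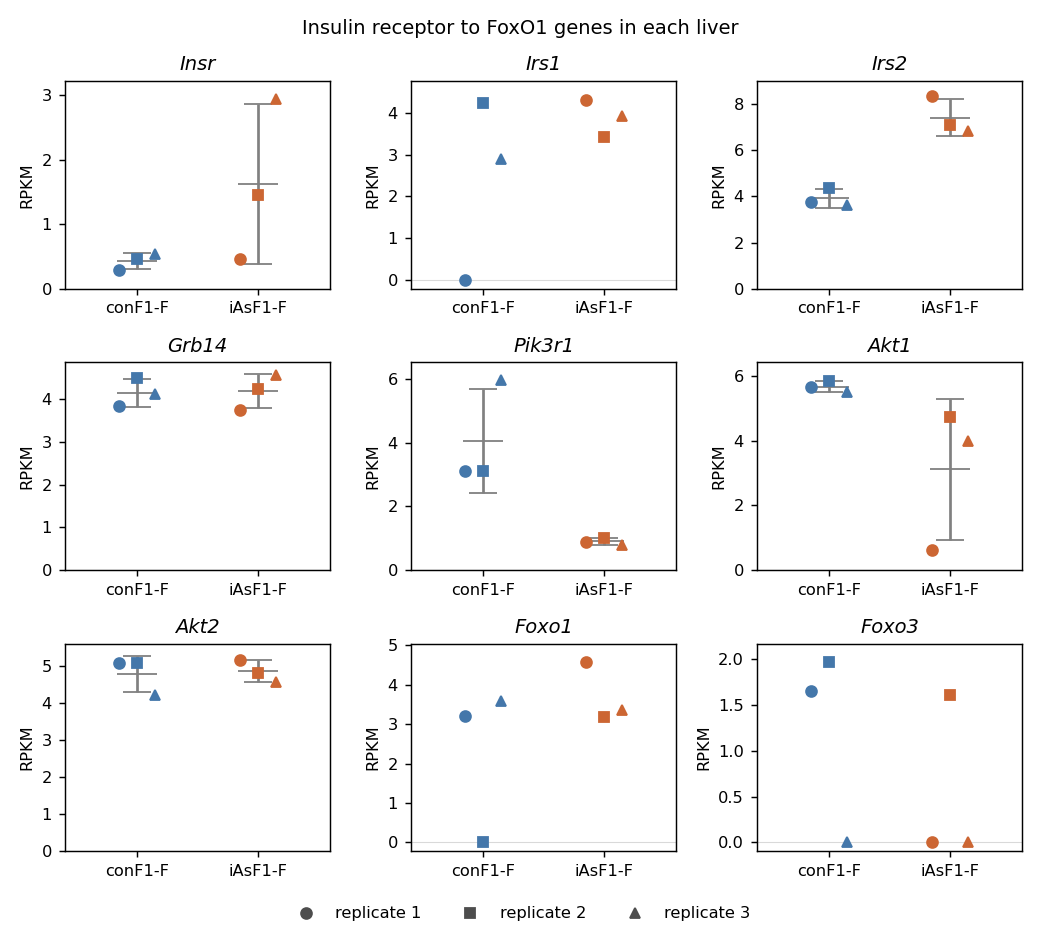
RPKM of the 9 genes in each of the 3 conF1-F livers (blue) and 3 iAsF1-F livers (orange), on linear axes of different height; marker shapes give the replicate, and grey bars the mean ± SD of a group for the 6 genes never listed at 0. The groups are apart for Irs2, Pik3r1 and Akt1, and Irs1, Foxo1 and Foxo3 each have livers listed at 0.

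Insr, the gene of the insulin receptor (ENSMUSG00000005534), occupies bases 3122061 to 3279617 of chromosome 8 (GRCm38, minus strand). Its levels were 0.294, 0.454 and 0.538 RPKM in conF1-F and 0.469, 1.45 and 2.93 RPKM in iAsF1-F. The lowest iAsF1-F liver lay within the conF1-F range and the other two lay above it. Group means were 0.429 ± 0.124 RPKM for conF1-F and 1.62 ± 1.24 RPKM for iAsF1-F (SD, n = 3), a 3.77-fold difference, and the iAsF1-F livers alone spanned 6.24-fold. Its log2 fold change was 0.76 (SE 0.41), and 1.12 without iAsF1-F replicate 1. Without iAsF1-F replicate 2 or replicate 3 the mean of Insr fell below the filter of 1 RPKM, so that its place among the compared genes rests on these 2 livers. The ratio of the means was 2.23 without iAsF1-F replicate 3 and 5.10 without iAsF1-F replicate 1.

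Irs2, the receptor substrate whose transcription is known to fall after insulin, lies on chromosome 8 from 10984681 to 11008458 on the minus strand (ENSMUSG00000038894). Its longest coding transcript has 6323 bases in 2 exons. Its levels were 3.77, 4.38 and 3.61 RPKM in conF1-F and 8.32, 7.07 and 6.81 RPKM in iAsF1-F. The lowest iAsF1-F liver was above the highest conF1-F liver, and the livers of a group lay close together. Group means were 3.92 ± 0.406 RPKM for conF1-F and 7.40 ± 0.807 RPKM for iAsF1-F (SD, n = 3). On the log2 scale the difference was 0.77 (SE 0.12), and it stayed between 0.69 and 0.84 when each liver was left out in turn. The SD within a group was 0.13 on the log2 scale, against a median of 0.25 over all compared genes. A processed transcript on the opposite strand, 9530052E02Rik, overlaps 609 bases of the Irs2 gene, and whether the counting used strand was not given. Other genes of this group overlap annotated neighbours by more. Pik3r1 shares 2169 and 400 bases with a pair of same-strand entries named Gm36638, Foxo1 shares 2069 bases with Gm38034 on the same strand, and Irs1 shares 2822 bases with Gm9747 on the opposite strand. How reads in these stretches were assigned was not given.

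Irs1, the other main receptor substrate of liver, lies on chromosome 1 from 82233101 to 82291416 on the minus strand (ENSMUSG00000055980). It was listed at 0 in conF1-F replicate 1 and at 4.23 and 2.90 RPKM in the other two conF1-F livers. In iAsF1-F its levels were 4.32, 3.42 and 3.92 RPKM. The iAsF1-F livers lay in or just above the range of the conF1-F livers that were above 0. The log2 fold change of 0.84 (SE 0.65) rests on the liver listed at 0, and without it the value was 0.11 (SE 0.19). That liver listed 58 compared genes at 0 that were above 0 in all others, Irs1 among them. Every liver listed such genes, from 38 in iAsF1-F replicate 3 to 134 in iAsF1-F replicate 1. If the commonest step of the low values is taken as the worth of 1 read, the values of Irs1 in the 5 other livers would stand for about 335 to 592 reads. Only 40.4% to 43.3% of low values lay within 0.1 of a whole multiple of that step, against 20% for evenly spread values, so that these are rough figures and reads could not be recovered.

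Irs2 made up 100%, 50.9% and 55.5% of the summed RPKM of Irs1 and Irs2 in conF1-F, and 65.8%, 67.4% and 63.4% in iAsF1-F. The value of 100% is that of the liver with Irs1 listed at 0. With this liver the mean share was 3.23 percentage points lower in iAsF1-F (difference −3.23), and without it 12.4 percentage points higher, so that its direction depends on 1 liver. Both remaining conF1-F livers were below all 3 iAsF1-F livers.

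Grb14, which encodes the adaptor that inhibits the receptor, lies on chromosome 2 from 64912476 to 65024987 on the minus strand (ENSMUSG00000026888). Its levels were 3.84, 4.50 and 4.12 RPKM in conF1-F and 3.76, 4.25 and 4.56 RPKM in iAsF1-F. The groups covered nearly the same range, with means of 4.15 ± 0.327 RPKM in conF1-F and 4.19 ± 0.406 RPKM in iAsF1-F (SD, n = 3). The fitted difference was 0.01 (SE 0.12, log2), and its sign turned when some single livers were left out, between −0.04 and 0.07.

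Pik3r1, which encodes p85α and its shorter forms, lies on chromosome 13 from 101680563 to 101768217 on the minus strand (ENSMUSG00000041417). Its levels were 3.13, 3.13 and 5.96 RPKM in conF1-F and 0.895, 1.02 and 0.802 RPKM in iAsF1-F. Every iAsF1-F liver was below every conF1-F liver, and conF1-F replicate 3 stood above the other two of its group. Group means were 4.07 ± 1.64 RPKM for conF1-F and 0.906 ± 0.110 RPKM for iAsF1-F (SD, n = 3). Its log2 fold change was −1.37 (SE 0.25), and it stayed between −1.49 and −1.12 when each liver was left out in turn. If each listed value is multiplied by its 4 entries, the sums were 12.5, 12.5 and 23.8 RPKM in conF1-F and 3.58, 4.08 and 3.21 RPKM in iAsF1-F. Since the value is a mean, a fall of all entries and the loss of the most abundant of them cannot be told apart. Which of these applies was not tested. Of the compared genes that were above 0 in every liver, 729 of 2580 with 2 or more entries (28.3%) differed by more than 3-fold between livers of the same group, and 281 of 2607 with 1 entry (10.8%) did. In Pik3r1, a gene chosen on these same values, the livers within a group differed by at most 1.91-fold. Nothing about its entries is read from this.

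Akt1, the AKT kinase found in nearly all tissues, lies on chromosome 12 from 112653821 to 112674884 on the minus strand (ENSMUSG00000001729). Its levels were 5.67, 5.86 and 5.51 RPKM in conF1-F and 0.635, 4.73 and 4.0 RPKM in iAsF1-F. The highest iAsF1-F liver was below the lowest conF1-F liver, and iAsF1-F replicate 1 stood far below the other two, which differed from it by up to 7.45-fold. Group means were 5.68 ± 0.178 RPKM for conF1-F and 3.12 ± 2.18 RPKM for iAsF1-F (SD, n = 3), 1.82-fold lower in iAsF1-F. The fitted log2 difference of −0.89 (SE 0.50) became −0.32 (SE 0.12) without iAsF1-F replicate 1, the library of the lowest estimated depth.

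Akt2, the AKT kinase best known for the metabolic actions of insulin in liver, lies on chromosome 7 from 27591552 to 27640826 on the plus strand (ENSMUSG00000004056). Its levels were 5.07, 5.08 and 4.23 RPKM in conF1-F and 5.17, 4.81 and 4.58 RPKM in iAsF1-F. The groups overlapped almost fully, with means of 4.79 ± 0.487 RPKM in conF1-F and 4.85 ± 0.299 RPKM in iAsF1-F (SD, n = 3). Its log2 fold change was 0.02 (SE 0.11), and with each liver left out in turn it lay between −0.05 and 0.05. Akt2 made up 47.2%, 46.4% and 43.5% of the summed RPKM of Akt1 and Akt2 in conF1-F and 89.1%, 50.4% and 53.4% in iAsF1-F. All iAsF1-F shares were above all conF1-F shares. The mean difference of 18.6 percentage points fell to 6.22 without iAsF1-F replicate 1, in which Akt1 was low.

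**Figure D3:**
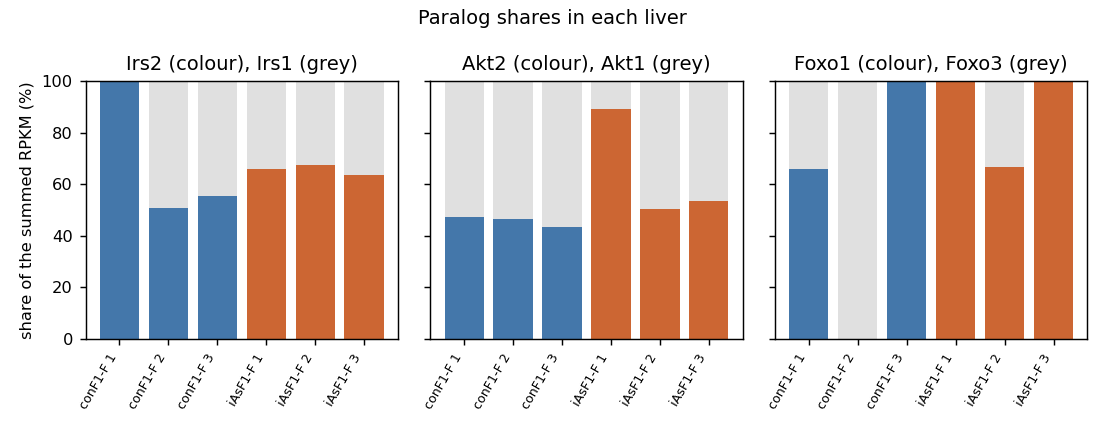
Share of Irs2, Akt2 and Foxo1 (coloured, with conF1-F in blue and iAsF1-F in orange) in the summed RPKM of each paralog pair, in percent per liver, with the partner gene in grey. Bars at 0% or 100% are livers in which a gene was listed at 0, and the Akt2 share of 89.1% is that of iAsF1-F replicate 1.

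Foxo1 encodes the FoxO factor that drives G6pc and Pck1 in the fasted liver, and lies on chromosome 3 from 52268336 to 52353221 on the plus strand (ENSMUSG00000044167). It was listed at 0 in conF1-F replicate 2 and at 3.20 and 3.58 RPKM in the other two conF1-F livers. In iAsF1-F its levels were 4.57, 3.19 and 3.36 RPKM. Apart from the liver listed at 0, the groups overlapped, and the highest value was that of iAsF1-F replicate 1. The log2 fold change of 0.80 (SE 0.63) became 0.09 (SE 0.18) without conF1-F replicate 2. That liver listed 103 compared genes at 0 that were above 0 in all others, within the range of 38 to 134 over the livers. On the same rough reading as for Irs1, the values of Foxo1 in the other livers would stand for about 392 to 480 reads.

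Foxo3, a related FoxO factor, lies on chromosome 10 from 42181841 to 42276755 on the minus strand (ENSMUSG00000048756). Its levels were 1.66 and 1.97 RPKM in conF1-F replicates 1 and 2 and 1.61 RPKM in iAsF1-F replicate 2, and it was listed at 0 in the other 3 livers. With a mean of 0.874 RPKM over the 6 livers it was not compared. Without the filter on low values its log2 fold change was −0.53 (SE 0.60). Its mean passed the filter only when a liver listed at 0 was left out, and the value was then −1.03 without conF1-F replicate 3 and −0.30 without iAsF1-F replicate 1 or replicate 3. Foxo1 made up 65.8%, 0% and 100% of the summed RPKM of Foxo1 and Foxo3 in conF1-F and 100%, 66.5% and 100% in iAsF1-F. Only 1 liver in each group had both genes above 0, and their shares differed by 0.620 percentage points. Among all compared genes, 1261 (19.6%) were listed at 0 in some livers, Irs1 and Foxo1 included.

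**Figure D4:**
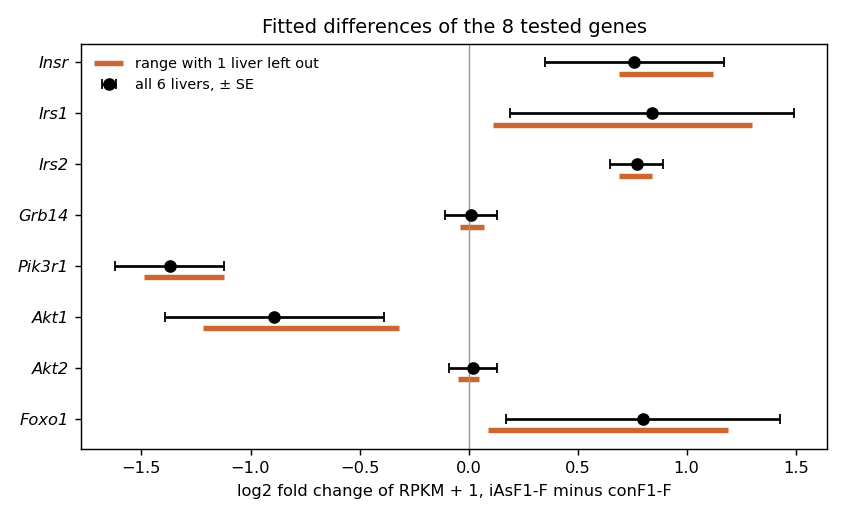
Log2 fold change of the 8 compared genes on the log2(RPKM + 1) scale, iAsF1-F minus conF1-F, with its SE (black) and the range of values obtained with 1 liver left out (orange). Irs2 and Pik3r1 kept values far from 0, from 0.69 to 0.84 and from −1.49 to −1.12, whereas Irs1, Foxo1 and Akt1 came to 0.11, 0.09 and −0.32 without 1 liver.

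By mean RPKM over the 6 livers, with listed zeros included, the genes stood in the order Irs2 (5.66), Akt2 (4.82), Akt1 (4.40), Grb14 (4.17), Irs1 (3.13), Foxo1 (2.98), Pik3r1 (2.49), Insr (1.02) and Foxo3 (0.874). The ranges over the livers overlapped between all neighbours in this order, so that no neighbours were apart beyond their spread. If each value is multiplied by its number of entries, Grb14 came first (20.9 RPKM), followed by Akt1 (17.6), Akt2 (14.5) and Pik3r1 (9.96), and Irs2 (5.66) came after them. Again the ranges of all neighbours overlapped. In conF1-F alone the highest means were those of Akt1 (5.68), Akt2 (4.79), Grb14 (4.15) and Pik3r1 (4.07), with Irs2 (3.92) after them, and in iAsF1-F alone Irs2 (7.40) came first and Pik3r1 (0.906) stood above Foxo3 only. The order of these genes by level therefore depends on the group and on how the entries were joined.

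In whole liver, fewer cells of a type and less RNA per cell cannot be told apart. Summed erythroid markers were 372 to 647 RPKM in conF1-F and 237 to 367 RPKM in iAsF1-F, and did not overlap, as for Irs2, Pik3r1 and Akt1. All 5 of the erythroid genes were above 0 in every liver. The mitochondrially encoded share of the summed RPKM was 14.2%, 15.2% and 15.1% in conF1-F and 17.0%, 15.3% and 15.8% in iAsF1-F, also without overlap. Their part in the differences of Irs2, Pik3r1 and Akt1 was not tested. Kupffer cell markers, 5 of 7 in the table, summed to 83.8 to 155 RPKM in conF1-F and 44.9 to 118 RPKM in iAsF1-F, which overlapped. Sinusoidal endothelial markers, 6 of 7 in the table, summed to 15.4 to 19.7 RPKM in conF1-F and 3.90 to 20.7 RPKM in iAsF1-F, and stellate cell markers to 29.9 to 51.8 and 38.9 to 44.5 RPKM. Cholangiocyte, lymphocyte and adipocyte lists had 1, 2 and 1 genes in the table, summing to at most 3.07, 0.654 and 2.35 RPKM, and those of exocrine pancreas and skeletal muscle had 0. No marker gene in the table was at 0 in every liver.

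Other genes of the pathway came from 7 lists with 123 genes, of which 94 were in the table and 52 had a mean of at least 1 RPKM. None of the 52 was a DEG in either direction (limma), against 0.124% of all genes in each, and 4 (7.69%) had an unadjusted p under 0.05, against 5.12% of all genes. The log2 fold change was above 0 for 36 of them and below 0 for 16, with a median of 0.10 against −0.00 over all genes. In 7 genes (13.5%) all iAsF1-F livers were above all conF1-F livers, against 5.83% of all genes, and in 0 they were below, against 5.71%. Of these 7, 6 belong to the list of hepatic transcripts known to follow insulin or FoxO1.

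In that list, 17 of 21 genes were compared, 15 had a log2 fold change above 0 and the median was 0.25. G6pc, the gene of the enzyme that releases free glucose from its phosphate, measured 25.7, 53.2 and 35.1 RPKM in conF1-F against 75.0, 99.1 and 95.7 RPKM in iAsF1-F, and its log2 fold change was 1.27 (SE 0.28). Pdk4, a kinase that inhibits pyruvate dehydrogenase, measured 1.96, 0.878 and 1.46 RPKM in conF1-F against 4.36, 3.83 and 2.48 RPKM in iAsF1-F, with a log2 fold change of 0.91 (SE 0.26). In both genes each iAsF1-F liver was above each conF1-F liver, as in Irs2. The same held for Apoc3, an inhibitor of lipoprotein lipase, at 167, 191 and 262 RPKM in conF1-F and 316, 359 and 359 RPKM in iAsF1-F. It held also for Cat, which encodes catalase, at 675, 764 and 679 RPKM in conF1-F and 858, 815 and 837 RPKM in iAsF1-F. These 4 genes are those with an unadjusted p under 0.05, and none passed the adjusted threshold. G6pc, Pdk4, Apoc3 and Cat were already known from earlier results of these data.

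Upstream, the other receptors and receptor partners had 2 compared genes. Ide, the insulin-degrading enzyme, ranged over 3.25 to 9.05 RPKM in conF1-F and 3.59 to 4.67 RPKM in iAsF1-F, with a log2 fold change of −0.38 (SE 0.33). Ceacam1, which promotes insulin clearance, had a log2 fold change of 0.10 (SE 0.15). Among 5 compared adaptors, Grb2, the adaptor that links receptors to Ras, had a log2 fold change of 0.00 (SE 0.17). Grb7, of the same family as Grb14, had one of 0.86 (SE 0.71), and conF1-F replicate 3 was its low liver at 0.412 RPKM beside 6.20 to 7.71 RPKM in iAsF1-F. Ptpn11, the phosphatase SHP2, had its low liver in iAsF1-F replicate 1 at 0.390 RPKM, as Akt1 did, and a log2 fold change of −0.69 (SE 0.70). Crk, another adaptor, stood at 0.23 (SE 0.17). All these groups overlapped.

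Of the list of PI 3-kinase genes and kinases acting with AKT, 2 of 16 were compared, neither of them a PI 3-kinase gene. The log2 fold change was 0.11 (SE 0.16) for Mapkap1, a subunit of mTORC2, and 0.01 (SE 1.07) for Sgk2. Sgk2 was listed at 0 in conF1-F replicate 3. Of 6 compared AKT substrates and mTORC1 genes, 3 were above 0 and 3 below, with a median of 0.03. Eif4ebp2 and Eif4ebp1, repressors of translation that mTORC1 phosphorylates, had log2 fold changes of 0.07 (SE 0.12) and −0.01 (SE 0.20). Gsk3a, a kinase of glycogen synthase, had one of 0.72 (SE 0.71) with conF1-F replicate 3 at 0.561 RPKM as its low liver, and Bad was listed at 0 in iAsF1-F replicate 1.

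Of 10 compared phosphatases and inhibitors, 5 were above 0 and 5 below, with a median of −0.00. Ahsg (fetuin-A), a plasma protein known to inhibit the receptor, ranged over 3736 to 4005 RPKM in conF1-F and 3675 to 4279 RPKM in iAsF1-F. Fetub, its relative fetuin-B, was listed at 0 in conF1-F replicate 2, and Ppp2cb, a catalytic subunit of protein phosphatase 2A, in conF1-F replicate 3. Both had overlapping groups. Of 10 compared FoxO family genes and FoxO regulators, 6 were above 0 and 4 below. The 14-3-3 genes Ywhab, Ywhae and Ywhag, whose proteins bind phosphorylated FoxO, had log2 fold changes of 0.07 (SE 0.07), −0.02 (SE 0.06) and −0.08 (SE 0.08), all with overlapping groups. Stub1, a ubiquitin ligase, was low in conF1-F replicate 1 alone, at 6.08 RPKM beside 16.5 to 17.9 RPKM in the other livers.

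**Figure D5:**
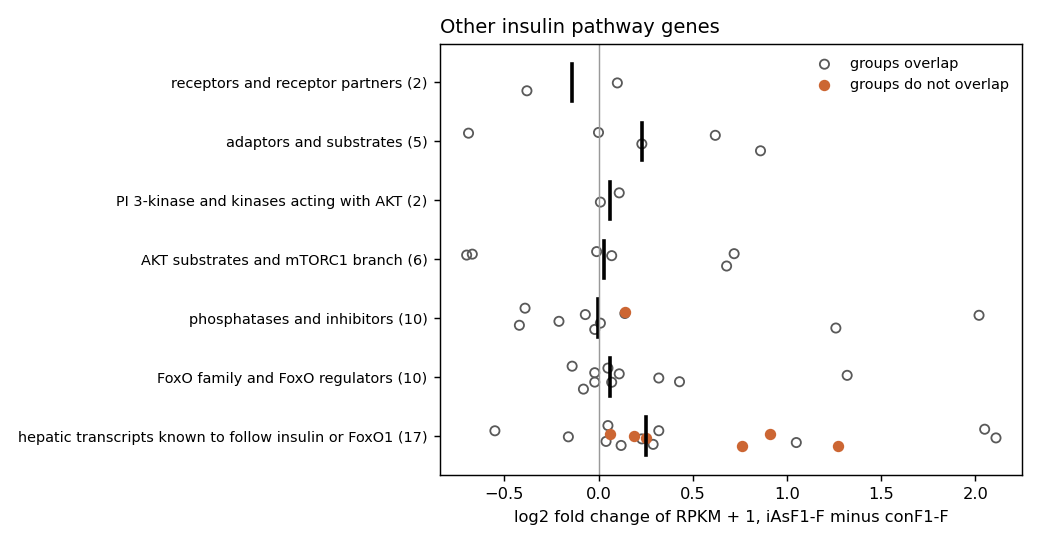
Log2 fold change on the log2(RPKM + 1) scale, iAsF1-F minus conF1-F, of 52 other insulin pathway genes in 7 lists, with the number compared in brackets; points are genes, filled where the groups do not overlap, and black bars are list medians. Of 7 filled points, 6 lie in the list of hepatic transcripts.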

How the data were processed

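RPKM values per gene were deposited by the authors, for each liver and for the whole series, and the 2 kinds of table were equal in all 105744 cells compared. The submitters' processing notes list the mm10 build and the tools DESeq2 1.8.2, STAR 2.5.3a and HTSeq, with no roles, and the program behind the RPKM values is not given in the sources used here. Totals of reads are unknown, so no counting interval is given. The 6448 genes averaging 1 RPKM or more were fitted on the log2(RPKM + 1) scale (limma 3.58.1, R 4.3.3), using a group term alone and a variance trend, with Benjamini-Hochberg adjustment over all of them at 0.05. The fit was tested on simulated data with normal noise. These did not model single livers listed at 0 or averaged entries, so the test cannot show how the fit handles them. Positions came from GENCODE for GRCm38, and promoters from RefSeq GRCm38.p6. Python 3.11.15, numpy 2.4.6, pandas 2.3.3 and matplotlib 3.10.9 were used otherwise.

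The 9 genes and the lists were chosen with earlier results of these data known. Named are all 9 genes, up to 4 per pathway list (DEGs first, then non-overlapping genes of smallest p, then genes of highest mean), and the 3 genes never listed at 0 whose centred log2 values differed least from those of Insr, Irs2 and Foxo1. A gene that this rule takes from the list of phosphatases and inhibitors is not reported here. Other settings were another pseudocount, no filter, 2 rescalings, removal of genes listed at 0, robust variances, a replicate block, single livers left out and other thresholds. Shares with entries summed or without livers at 0, the overlap with zeros as missing, ratios of means with a liver left out and the order within a group were added after the data were seen.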

Additional observations from a re-analysis of the deposited data

How the results depend on the processing

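None of the 8 compared genes became a DEG with a pseudocount of 0.1, no filter, either rescaling, a robust fit, the replicate block, any liver left out, genes at 0 removed or an adjusted threshold of 0.1. At an unadjusted p under 0.05 (limma), 2 of the 8 genes, 4 of the 52 other pathway genes (7.69%) and 330 of all genes (5.12%) passed. Both sets were chosen with earlier results of these data known, and nothing is read from their counts. The DEGs over all genes numbered 16, 5 without genes listed at 0 in any liver, 0 with the replicate block and 26 to 38 with 1 liver left out, the most without conF1-F replicate 3. Livers with the same number did not deviate together more than others (correlations −0.06, 0.02 and 0.08 over 5187 genes). Livers with different numbers gave correlations from −0.11 to 0.09. These values cannot show whether livers with the same number shared a litter or a preparation. With 1 liver left out, 3 to 5 of the genes had groups that did not overlap, and 4 to 6 had a log2 fold change above 0. The 5 without conF1-F replicate 3 were Irs2, Pik3r1, Akt1, Insr and Foxo3. The counts of 4 above 0, without iAsF1-F replicate 2 or 3, are also those in which Insr was not compared. Groups of fewer livers come apart more easily in any gene, and the shares over all genes were not taken in these settings. Nothing is therefore read from these counts. With each liver left out the share of Irs2 differed by −12.2 to 12.4 percentage points, that of Akt2 by 6.22 to 25.5 and that of Foxo1 by 5.90 to 55.9. With a pseudocount of 0.1 the log2 fold changes were 1.42 for Insr, 1.86 for Irs1, 0.90 for Irs2, −1.99 for Pik3r1 and 1.82 for Foxo1, larger by construction at low RPKM. The missing read totals and the mixing of entries limit every value, and 3 livers a group leave small differences, such as those of Grb14 and Akt2, undecided.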

Other observations

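Over the 6 livers, the profiles most like that of Irs2 among 5186 genes never listed at 0, by the root mean square difference of centred log2(RPKM + 1) values, were those of Gm43857 (0.126), Cyb5r3 (0.141) and Gstz1 (0.142). Cyb5r3, a cytochrome b5 reductase, measured 108, 106 and 96.8 RPKM in conF1-F livers against 158, 145 and 150 RPKM in iAsF1-F livers. Gstz1, an enzyme of tyrosine breakdown, measured 185, 168 and 146 RPKM in conF1-F livers against 266, 246 and 269 RPKM in iAsF1-F livers. In both, as in Irs2, the groups did not overlap, iAsF1-F being higher, and the livers of a group lay close together.

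The profiles most like that of Insr were those of F830016B08Rik (0.162), Gm14472 (0.196) and Gm11955 (0.218). All 3 had their highest level in iAsF1-F replicate 3, at 3.78, 6.51 and 3.89 RPKM, as Insr had. The profiles most like that of Foxo1, among 5187 genes, were those of Gm15453 (0.140), Tfg (0.168) and Gm15027 (0.174). All 3 had their lowest level in conF1-F replicate 2, at 0.586, 0.677 and 0.922 RPKM, the liver in which Foxo1 was listed at 0. In the other 5 livers Tfg, which encodes a protein of vesicle export from the endoplasmic reticulum, stood between 4.02 and 8.02 RPKM. These likenesses were found by search over these 6 livers and say nothing of shared control.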
